A study of Mus musculus with 12 samples.

Results

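Melanosome biogenesis and pigment genes were described in sorted skin cells. The module has 32 genes, and all 32 were found by gene symbol among the 19938 genes measured. They were divided by known use into 12 pigment genes of the melanocyte and 20 genes of lysosome-related organelles that many cell types use. Of the 12, Kit, Sox10 and Ednrb are also used by other cell types. Melanophages are macrophages filled with melanin, and the comparison asks whether they carry transcripts of the pigment machinery as well as the pigment.

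The study holds 12 microarrays in 4 groups of 3: MHC-II-positive melanophages, MHC-II-negative melanophages, MHC-II-positive macrophages and MHC-II-negative macrophages. All cells came from the skin of untreated B6 wild-type SPF mice, whose age is not given in the sources used here. Every group was gated as positive for CD11b and CD64 and negative for CD24, CCR2 and Ly6c, so these markers are no finding here. Side scatter was high for melanophages. For macrophages the titles say high and the phenotype field says low, so scatter defined no group here. Nothing in the labels ties the 3 arrays of a group to different mice, so the p-values reflect variation among these arrays, and part or all of it may be technical.

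A melanosome is a lysosome-related organelle of the melanocyte. Its matrix is built from Pmel fibrils, Tyr and its relatives make melanin on them, and pumps and channels of its membrane set the pH and ion content. The enzymes reach it from endosomes through the adaptor AP-3, the BLOC complexes and the GTPases Rab32 and Rab38, and mature melanosomes are held on actin by Rab27a, Mlph and Myo5a. In the skin, macrophages take up melanin released by other cells, and the trafficking complexes also serve their own lysosomes.

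Promoter stretches of 3 pigment enzyme genes and 3 organelle genes are shown because the motif CATGTG was commoner in the pigment class and CACGTG in the organelle class, with exceptions given below the stretches. MITF, the regulator of the melanocyte lineage, and its relatives TFEB and TFE3 bind E-box motifs. The letters CATGTG and CACGTG were searched on both strands in the 250 bases before each start in RefSeq's promoter table (GRCm38.p6). That table held 8 of the 12 pigment genes and 18 of the 20 organelle genes. Each stretch below has 100 bases, 5′ to 3′ on the gene's own strand. Capitals mark CATGTG in the first 3 stretches and CACGTG in the last 3. The stretches lie at chr7:87493513-87493612 (minus strand) for Tyr, chr4:80834113-80834212 (plus strand) for Tyrp1 and chr14:118052347-118052446 (minus strand) for Dct. Those of Bloc1s1, Hps3 and Vps33a lie at chr10:128923525-128923624, chr3:20035311-20035410 and chr5:123573016-123573115, all on the minus strand. The others than Dct end at the last base before the start, and the Dct stretch leaves out the 100 bases nearest to it.
Tyr: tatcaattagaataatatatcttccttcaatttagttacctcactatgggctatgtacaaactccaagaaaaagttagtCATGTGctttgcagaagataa
Tyrp1: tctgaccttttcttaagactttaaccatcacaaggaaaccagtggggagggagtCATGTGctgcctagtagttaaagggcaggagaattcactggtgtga
Dct: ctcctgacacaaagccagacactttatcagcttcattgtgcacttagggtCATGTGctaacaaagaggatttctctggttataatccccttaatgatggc
Bloc1s1: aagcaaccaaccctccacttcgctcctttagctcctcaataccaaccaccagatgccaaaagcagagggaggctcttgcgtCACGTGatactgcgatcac
Hps3: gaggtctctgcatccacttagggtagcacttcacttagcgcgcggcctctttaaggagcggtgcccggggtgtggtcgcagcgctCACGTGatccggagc
Vps33a: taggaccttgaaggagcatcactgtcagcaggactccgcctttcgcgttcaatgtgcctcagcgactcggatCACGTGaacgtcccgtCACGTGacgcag

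CATGTG stood before 6 of the 8 pigment genes (75%), namely Tyr, Tyrp1, Dct, Oca2, Slc24a5 and Mc1r, and before 2 of the 18 organelle genes (11.1%), Hps1 and Bloc1s1. Of all 27025 genes with a promoter entry, 13.8% had it. CACGTG stood before 0 of the 8 pigment genes and 7 of the 18 organelle genes (38.9%), against 6.86% of all genes. The 7 were Hps3, Hps5, Bloc1s1, Bloc1s3, Rab27a, Mlph and Vps33a, with a pair of matches each in Hps5 and Vps33a. The longest run around the core shared by Tyr and Tyrp1 is AGTCATGTGCT, which occurs before 7 of the 27025 genes. The run shared with Dct is GTCATGTGCT, found before 39 genes. Both runs contain CATGTG and were read from these promoters. These matches describe letters only, and binding was not measured.

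The cells carried the markers of macrophages. All 8 macrophage genes of the marker list, among them Csf1r, Adgre1 and Cd68, lay above the background level in every group, and the mean log2 value of that list lay between 8.94 and 9.35 in all 12 arrays. The background level was taken from 1194 olfactory and vomeronasal receptor genes, which serve the sense of smell. The sort was visible in H2-Ab1, an MHC-II chain, at 11.22 to 11.61 in MHC-II-positive cells of both kinds. It read 7.37 to 8.83 in MHC-II-negative melanophages and 8.93 to 9.60 in MHC-II-negative macrophages. Transcripts of Ccr2 and Cd24a, whose proteins the gate excludes, had means above background in all 4 groups. In MHC-II-negative melanophages these means were near background, at 3.40 for Ccr2 and 3.16 for Cd24a. Ccr2 read 6.49 to 7.70 in MHC-II-positive cells, against 3.10 to 4.15 in MHC-II-negative cells. Cd24a read 4.14 to 4.70 in MHC-II-positive melanophages and 2.38 to 3.83 in MHC-II-negative melanophages, against 5.42 to 6.83 in MHC-II-positive macrophages and 3.61 to 4.84 in MHC-II-negative macrophages. Its difference between the cell kinds was -1.28 ± 0.32 (limma adjusted p = 0.266). All 7 measured genes of the sort markers were lower in melanophages, averaged over MHC-II class. Of these 6 had an unadjusted p under 0.05 in limma, against 7.52% of all genes, and 0 were called. The 95th percentile of the receptor genes' mean log2 values was 3.04 to 3.12 in the 4 groups and the 99th percentile 3.51 to 3.66. A group mean under the 95th percentile is called at background here. Probe sets differ in their own affinity, so levels of different genes were not ranked. Replicate 3 of the MHC-II-positive macrophages and replicate 1 of the MHC-II-negative macrophages were the arrays least like the rest of their groups. The SDs of their gene-wise differences were 0.356 and 0.406, against 0.241 to 0.311 in the other arrays.

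Of the 12 pigment genes, 8 were at background in all 4 groups, melanophages included. These were the enzyme genes Tyr, Tyrp1 and Dct, the transporter genes Slc45a2 and Oca2, the melanocortin receptor gene Mc1r, the stem cell factor receptor gene Kit and the transcription factor gene Sox10. Pmel and Mlana were above background in some groups, and Slc24a5 and Ednrb in all 4. Of the 20 organelle genes, 16 were above it in all 4 groups, Hps5 in 3 and Hps1, Hps6 and Rab27a in none. Over all genes, 10897 of 19938 had a highest group mean above the background. That rule looks at the highest group only and is looser than being above background in all 4 groups. By the looser rule 8 of the 12 pigment genes and 3 of the 20 organelle genes were not above it. No all-gene count is given here for the stricter rule, so the member counts in all 4 groups cannot be set against all genes. The median of all genes was 3.09 to 3.12 in the 4 groups, close to the background level, so being at background is common on these arrays. At the 99th percentile, 1 pigment gene (Ednrb) and 12 organelle genes were above in all 4 groups, again without an all-gene count to set them against.

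**Figure D1:**
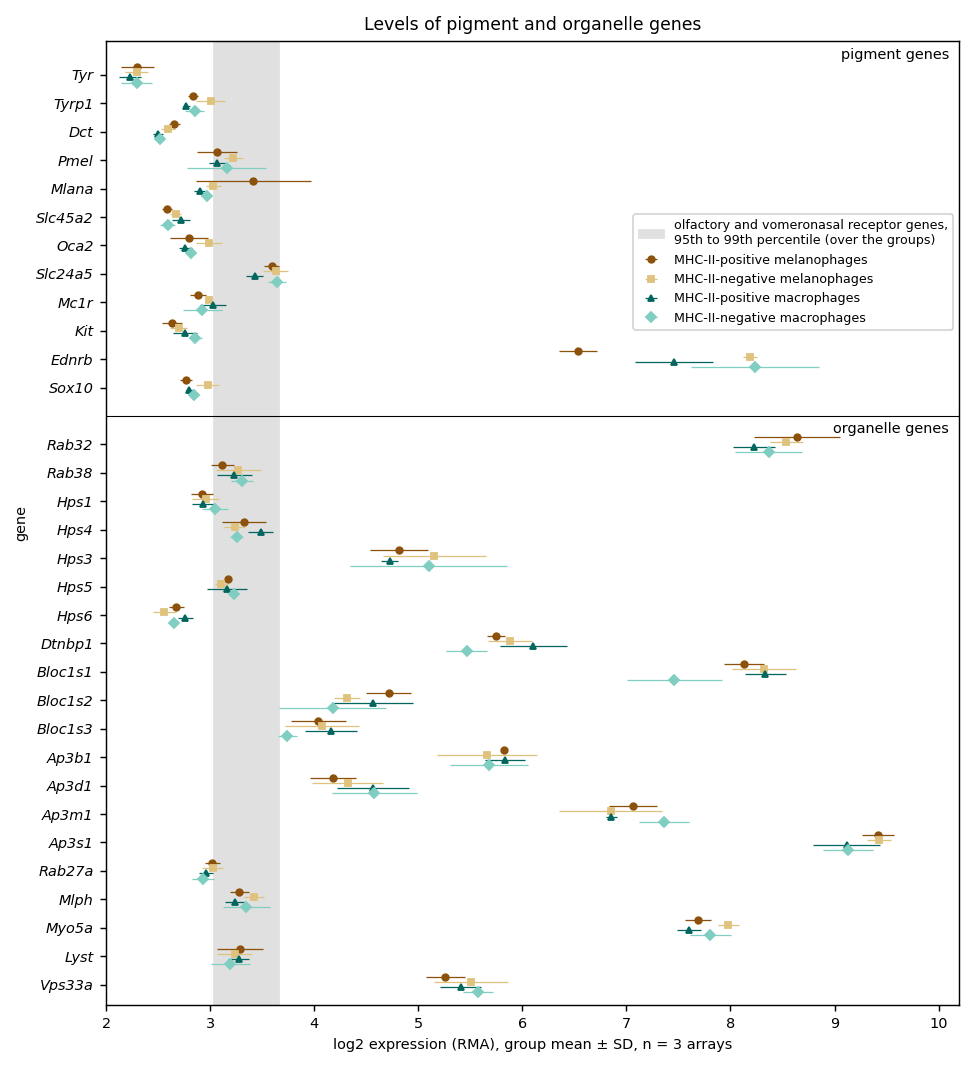
Mean log2 expression (x axis) of the 32 genes (y axis) in each group, with bars for the SD over 3 arrays, and a grey band from the lowest 95th to the highest 99th percentile of the receptor genes over the groups. Tyr, Dct and Slc45a2 sit left of the band in all groups, and Ednrb, Rab32, Bloc1s1, Ap3s1 and Myo5a far to its right.

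Tyr encodes tyrosinase, which catalyses the rate-limiting step of melanin synthesis. Its log2 values were 2.34, 2.43 and 2.13 in MHC-II-positive melanophages and 2.42, 2.26 and 2.2 in MHC-II-negative melanophages, against 2.25, 2.12 and 2.33 in MHC-II-positive macrophages and 2.46, 2.19 and 2.23 in MHC-II-negative macrophages. The 4 groups overlapped, and every array was below the background level. Averaged over MHC-II class, melanophages minus macrophages was 0.03 ± 0.08 (SE, 95% interval -0.14 to 0.20). Tyrp1 and Dct encode related enzymes that shape eumelanin. Group means of Tyrp1 were 2.77 to 3.00 and those of Dct 2.50 to 2.65. The difference of Dct between the cell kinds was 0.12 ± 0.05 on values at background (limma unadjusted p = 0.0305, adjusted p = 0.603), and 0.16 in the MHC-II-positive class (adjusted p = 0.766). Averaged over MHC-II class, that of Tyrp1 was 0.11 ± 0.06 (adjusted p = 0.725).

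Pmel encodes the fibril protein of the early melanosome. Its values were 2.84, 3.14 and 3.21 in MHC-II-positive melanophages and 3.33, 3.17 and 3.17 in MHC-II-negative melanophages, against 3.15, 3.00 and 3.05 in MHC-II-positive macrophages and 3.11, 3.56 and 2.80 in MHC-II-negative macrophages. The highest array, at 3.56, was one of macrophages, and the cell kinds overlapped (0.03 ± 0.12, adjusted p = 0.98).

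Mlana, which encodes the melanosome protein MART-1, had a single high array. It read 4.05, 3.14 and 3.05 in MHC-II-positive melanophages and 3.00, 3.12 and 2.98 in MHC-II-negative melanophages, against 2.85, 2.89 and 2.95 in MHC-II-positive macrophages and 3.02, 2.94 and 2.95 in MHC-II-negative macrophages. All 3 MHC-II-positive melanophage arrays were above all 3 arrays of MHC-II-positive macrophages. The difference was 0.51 ± 0.21 with limma (unadjusted p = 0.032, adjusted p = 0.763), and it was 0.20 without the array at 4.05, MHC-II-positive melanophages replicate 1. In that array Tyr was at 2.34, Tyrp1 at 2.78 and Pmel at 2.84, each within the range of the other arrays. Dct was at 2.72, its highest value in the 12 arrays, though below the background level. Oca2 was at 2.98, also below it, against 2.61 and 2.81 in its group mates. The mean of 7 keratinocyte markers was 3.02 in replicate 1, against 3.19 and 3.11 in its group mates. Krt5, a marker of the basal layer, was at 2.93 there. Krt14 and Krt10, the 2 markers of the list above background in all groups, were at 3.49 and 3.29. The group mates read 3.66 and 3.72 for Krt14 and 3.67 and 3.51 for Krt10. The part of melanocyte or keratinocyte RNA in this array was not tested.

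The membrane transport genes were near background as well. Group means of Slc45a2 were 2.59 to 2.72 and those of Oca2 2.76 to 2.99. Slc24a5, which encodes a sodium and calcium exchanger of the melanosome, had means of 3.59 and 3.63 in MHC-II-positive and MHC-II-negative melanophages, against 3.43 and 3.64 in MHC-II-positive and MHC-II-negative macrophages. These lie between the 95th and slightly above the 99th percentile of the receptor genes. Within macrophages, MHC-II-positive minus MHC-II-negative was -0.21 ± 0.08 for Slc24a5 (limma unadjusted p = 0.0296, adjusted p = 0.556). Mc1r, the receptor that switches melanocytes to eumelanin, had group means of 2.88 to 3.03.

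Sox10 and Kit, which act in the development of melanocytes, were at background in each group. Sox10 had group means of 2.77 to 2.98. The MHC-II classes of melanophages did not overlap for it, with 2.79, 2.81 and 2.70 in MHC-II-positive cells, against 2.89, 2.94 and 3.10 in MHC-II-negative cells. The difference was -0.21 ± 0.07 within melanophages (limma unadjusted p = 0.0154, adjusted p = 0.649) and -0.13 ± 0.05 over both cell kinds (unadjusted p = 0.0323, adjusted p = 0.466). Kit read 2.52 to 2.78 in melanophages and 2.63 to 2.91 in macrophages (-0.15 ± 0.06, limma unadjusted p = 0.0342, adjusted p = 0.62). Mast cells also use Kit. Of 8 mast cell markers 4 were above background in all groups, among them Mcpt4 with array values of 4.92 to 7.86, and Fcer1a and Ms4a2 were at background. Schwann cells also use Sox10. Of their 3 measured markers Mbp was above background and Cdh19 and Sox2 were not.

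Ednrb, the endothelin receptor type B that melanocyte precursors need, was the exception among the pigment genes. It was far above background in every array. Its log2 values were 6.35, 6.71 and 6.55 in MHC-II-positive melanophages and 8.24, 8.11 and 8.22 in MHC-II-negative melanophages. They were 7.04, 7.55 and 7.78 in MHC-II-positive macrophages and 7.55, 8.44 and 8.73 in MHC-II-negative macrophages. The MHC-II classes were fully apart in melanophages, where the 3 arrays of each class lay close together, and overlapped in macrophages.

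Averaged over cell kind, Ednrb was 2.32-fold lower in MHC-II-positive cells (log2 difference -1.22 ± 0.19, 95% interval -1.64 to -0.79, limma adjusted p = 0.0176). It was the 1 member of 32 called in this comparison, in which 0.762% of all genes were called, 0.13% as lower. Within melanophages it was 3.14-fold lower in MHC-II-positive cells (-1.65 ± 0.27, adjusted p = 0.0489), again the 1 member called where 0.211% of all genes were. Within macrophages the difference was -0.78 ± 0.27 (adjusted p = 0.464), and 0 members were called where 0.341% of all genes were, with 5 members at an unadjusted p under 0.05 in limma, against 7.83% of all genes. Within melanophages 3 members had such a p, against 5.7% of all genes, and arrays of 5 members did not overlap, against 12.2%.

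The differences of Ednrb in the cell kinds were not shown to be unequal. The interaction was -0.87 ± 0.39 (limma unadjusted p = 0.0469, adjusted p = 1.0). In it 0% of all genes were called, 4 members had an unadjusted p under 0.05, and so did 4.11% of all genes. Without both macrophage arrays that stood apart it was -0.36 ± 0.24 and the difference within macrophages was -1.29 ± 0.18 (adjusted p = 0.0311). The averaged difference was then -1.47 ± 0.12 (adjusted p = 0.00107). The averaged call ended when replicate 3 of the MHC-II-positive melanophages was left out (adjusted p = 0.0508), replicate 1 or 3 of the MHC-II-negative melanophages (0.0523 and 0.0551), or replicate 2 of the MHC-II-negative macrophages (0.0504). The call within melanophages ended in 9 of the 12 fits that leave out 1 array (adjusted p up to 0.192), while the difference stayed between -1.74 and -1.56. These fits leave out in turn each melanophage array and MHC-II-positive macrophages replicates 2 and 3 or MHC-II-negative macrophages replicate 2.

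Endothelial cells also make Ednrb. Of 7 endothelial markers 5, among them Pecam1, Cdh5 and Kdr, were at background in all groups, and Egfl7 and Cldn5 were slightly above it. Egfl7 went the same way as Ednrb in melanophages, with 3.11, 3.09 and 3.16 in MHC-II-positive cells, against 3.65, 3.37 and 3.25 in MHC-II-negative cells (-0.30 ± 0.12, limma unadjusted p = 0.0246, adjusted p = 0.749). The mean of the list was 2.85 to 2.91 in MHC-II-positive melanophages and 2.89 to 2.90 in MHC-II-negative melanophages, against 2.80 to 2.86 in MHC-II-positive macrophages and 2.86 to 2.93 in MHC-II-negative macrophages. Of 5 fibroblast markers 3 were above background in all groups and Pdgfra and Lum were not. Dcn, among the 3, read 4.80, 5.59 and 5.71 in MHC-II-positive macrophages and 5.05, 6.78 and 7.11 in MHC-II-negative macrophages. In each of these classes its arrays had the same order as those of Ednrb. The arrays of Col1a1 and Col1a2, the other fibroblast markers above background, had that order in neither class. Vps11 and Atp7a, pathway genes outside the module, had it in both. In melanophages the orders of Dcn and Ednrb differed, and the means of Dcn were 5.36 in MHC-II-positive and 5.26 in MHC-II-negative cells. The mean of the 5 markers was 3.45 to 3.53 and 3.32 to 3.69 in MHC-II-positive and MHC-II-negative melanophages, and 3.34 to 3.61 and 3.46 to 3.84 in MHC-II-positive and MHC-II-negative macrophages. The mean of the mast cell markers was 3.24 to 3.84 and 3.23 to 4.11 in the same melanophages, and 3.14 to 3.45 and 3.70 to 4.02 in the same macrophages. Averaged over cell kind, all 8 of them were lower in MHC-II-positive cells, as Ednrb was. Of these 3 had an unadjusted p under 0.05 in limma, against 9.23% of all genes, and 0 were called. Arrays of 4 did not overlap within macrophages, against 12% of all genes, and of 0 within melanophages. Of 3 measured T cell markers, Cd3g was at background, Cd3e had array values of 2.98 to 3.70, and Cd2 was higher in MHC-II-positive cells (1.37 ± 0.13, limma adjusted p = 0.000454). The mean of these 3 was 3.53 to 3.69 and 2.82 to 3.01 in MHC-II-positive and MHC-II-negative melanophages, and 3.56 to 3.67 and 3.22 to 3.39 in MHC-II-positive and MHC-II-negative macrophages. The part of endothelial, fibroblast, mast cell and T cell RNA in the difference was not tested. In sorted bulk samples, fewer cells with the transcript and less of it per cell cannot be told apart.

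**Figure D2:**
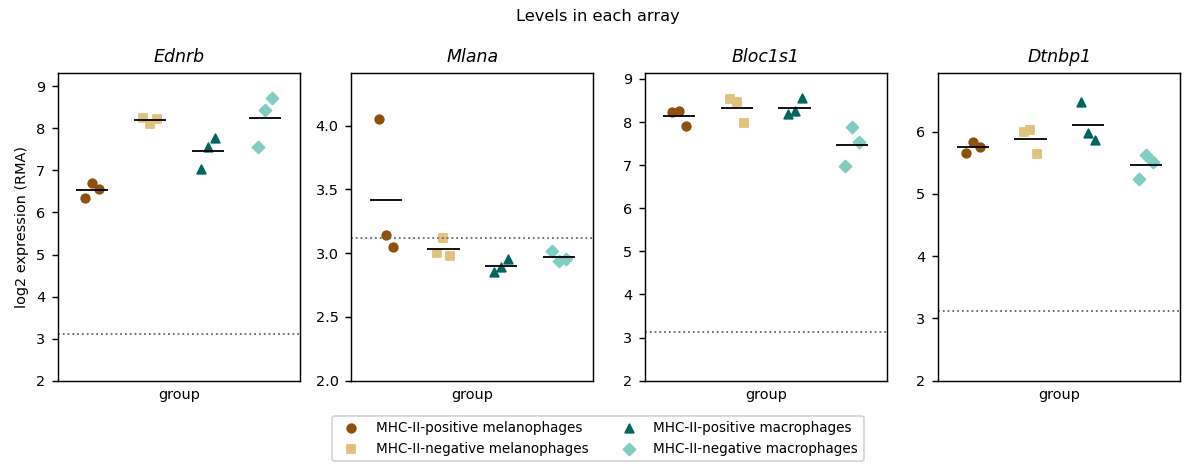
Log2 expression (y axis) of Ednrb, Mlana, Bloc1s1 and Dtnbp1 in each array, by group (x axis), with a line at the group mean and a dotted line at the highest 95th percentile of the receptor genes, 3.12. Ednrb is lowest in MHC-II-positive melanophages, Mlana has 1 array at 4.05, and Bloc1s1 and Dtnbp1 are lowest in MHC-II-negative macrophages.

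Between melanophages and macrophages, averaged over MHC-II class, 0 of the 32 genes were called with limma (4 with an unadjusted p under 0.05), in a comparison that called 0.12% of all genes and gave an unadjusted p under 0.05 to 7.52%. The median log2 difference was 0.04 over the 12 pigment genes and 0.03 over the 20 organelle genes, against 0.01 over all genes. Arrays of 0 members were apart one way within each MHC-II class, against 1.16% of all genes. Of the pigment genes 8 had a difference above 0 and 4 below, and of the organelle genes 11 and 9. Apart from Ednrb (-0.49 ± 0.19, adjusted p = 0.599), the 95% intervals of the pigment genes stayed between -0.28 and 0.61, the ends belonging to Kit and Mlana. Those of the organelle genes stayed between -0.70 for Ap3d1 and 0.69 for Bloc1s1. Within the MHC-II-negative class 0 members were called, where 0.00502% of all genes were, and within the MHC-II-positive class 0, where 0.015% were. An unadjusted p under 0.05 in limma was found for 3 members in each class, against 5.65% of all genes in the MHC-II-negative and 6.3% in the MHC-II-positive class. In the MHC-II-positive class Ednrb read -0.92 ± 0.27 (unadjusted p = 0.00668, adjusted p = 0.576).

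**Figure D3:**
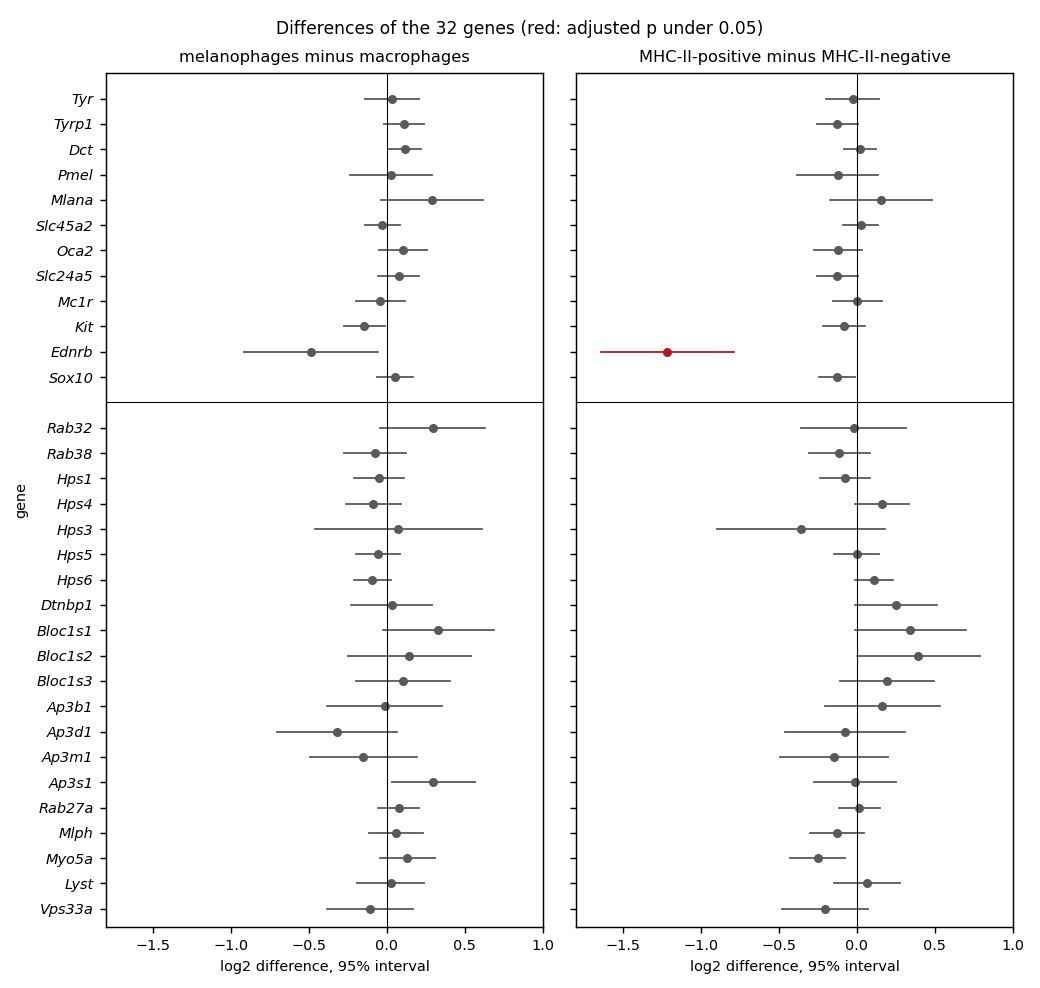
Log2 differences (x axis) of the 32 genes (y axis) with 95% intervals, for melanophages minus macrophages averaged over MHC-II class (left) and MHC-II-positive minus MHC-II-negative averaged over cell kind (right). In red is the 1 difference with an adjusted p under 0.05, Ednrb at -1.22.

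Among the delivery GTPases, Rab32 was well expressed and Rab38 was near background. In melanocytes both bring enzymes to the melanosome, and Rab32 also acts on phagosomes of macrophages. Rab32 read 8.17, 8.90 and 8.85 in MHC-II-positive melanophages and 8.60, 8.36 and 8.66 in MHC-II-negative melanophages, against 8.29, 8.0 and 8.39 in MHC-II-positive macrophages and 8.67, 8.40 and 8.03 in MHC-II-negative macrophages. The cell kinds overlapped (0.29 ± 0.15, adjusted p = 0.718). Rab38 had group means of 3.12 to 3.31, under the 99th percentile of the receptor genes. Hps1 and Hps4 form BLOC-3, the exchange factor that activates both GTPases, and their group means were 2.92 to 3.05 and 3.24 to 3.48.

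BLOC-2 is built from Hps3, Hps5 and Hps6 and directs endosomal carriers to the melanosome. Hps3 was above background, with group means of 4.72 to 5.16, and single arrays of MHC-II-negative macrophages spread from 4.28 in replicate 1 to 5.76. Hps5 had group means of 3.11 to 3.23 and Hps6 of 2.56 to 2.76.

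BLOC-1 acts upstream of it on the endosome. Its 8 subunits were measured, 4 of them members, and Bloc1s1 and Dtnbp1 had their lowest group means in MHC-II-negative macrophages. Bloc1s1 read 8.24, 8.25 and 7.91 in MHC-II-positive melanophages and 8.54, 8.46 and 7.97 in MHC-II-negative melanophages, against 8.18, 8.26 and 8.56 in MHC-II-positive macrophages and 6.97, 7.88 and 7.54 in MHC-II-negative macrophages. The arrays of MHC-II-negative macrophages were all below those of every other group. Within the MHC-II-negative class, melanophages minus macrophages was 0.86 ± 0.23 (limma unadjusted p = 0.00319, adjusted p = 0.528). Within macrophages, MHC-II-positive minus MHC-II-negative was 0.88 ± 0.23 (unadjusted p = 0.00294, adjusted p = 0.219). A second probe set of Bloc1s1 gave 0.85 and 0.95 for the same differences. Without both macrophage arrays that stood apart they were 0.62 and 0.52.

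Dtnbp1 encodes dysbindin. It read 5.65, 5.83 and 5.76 in MHC-II-positive melanophages and 5.99, 6.02 and 5.64 in MHC-II-negative melanophages, against 6.47, 5.97 and 5.87 in MHC-II-positive macrophages and 5.24, 5.63 and 5.52 in MHC-II-negative macrophages. Melanophages were above macrophages in the MHC-II-negative class (0.42 ± 0.17, limma unadjusted p = 0.0299, adjusted p = 0.82) and below them in the MHC-II-positive class (-0.36 ± 0.17, adjusted p = 0.807), without overlap in either. Within macrophages the MHC-II classes were also apart (0.64 ± 0.17, unadjusted p = 0.00305, adjusted p = 0.22). None of these differences passed over all genes. Arrays without overlap were found for 9.48% of all genes between the cell kinds in the MHC-II-negative class, for 12.4% in the MHC-II-positive class and for 12% between the MHC-II classes of macrophages. The members numbered 6 of 32, 6 of 32 and 7 of 32 in the same comparisons.

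The other member subunits passed no test. Bloc1s3 had group means of 4.04 and 4.07 in MHC-II-positive and MHC-II-negative melanophages, against 4.16 and 3.74 in MHC-II-positive and MHC-II-negative macrophages, and its classes did not overlap in macrophages (0.42 ± 0.19, adjusted p = 0.636). Bloc1s2 had means of 4.72 and 4.32 in the same melanophages, against 4.57 and 4.18 in the same macrophages, with MHC-II-positive minus MHC-II-negative at 0.39 ± 0.18 over both cell kinds (adjusted p = 0.545). A second probe set of Bloc1s2 gave 0.24 ± 0.20 for that difference. Of the subunits outside the module, Bloc1s4 went the other way in macrophages, with 5.83, 5.69 and 5.75 in MHC-II-positive cells, against 6.29, 6.15 and 6.03 in MHC-II-negative cells (-0.40 ± 0.09, limma unadjusted p = 0.00153, adjusted p = 0.153). Within macrophages Bloc1s5, Bloc1s6 and Snapin differed by 0.02 ± 0.14, -0.04 ± 0.15 and -0.04 ± 0.24, MHC-II-positive minus MHC-II-negative, and none passed.

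AP-3 is the adaptor that packs cargo for lysosomes and melanosomes, and its 4 member chains were above background in all groups. Of the related chains outside the module, Ap3m2 and Ap3s2 were above it in all groups and Ap3b2 in 2, with group means of 3.02 to 3.11. Ap3s1, its small chain, read 9.59, 9.38 and 9.28 in MHC-II-positive melanophages and 9.47, 9.51 and 9.30 in MHC-II-negative melanophages, against 9.05, 8.83 and 9.46 in MHC-II-positive macrophages and 9.41, 8.99 and 8.99 in MHC-II-negative macrophages. The highest macrophage arrays were the 2 that stood apart. The difference was 0.30 ± 0.12 (limma unadjusted p = 0.03, adjusted p = 0.601), and 0.46 ± 0.08 without both (adjusted p = 0.054). The 3 probe sets of Ap3s1 gave 0.30, 0.37 and 0.40 and list the same reference transcript in the platform annotation, so signals of near copies cannot be separated.

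Ap3m1 encodes the medium chain. Its group means were 7.06 and 6.85 in MHC-II-positive and MHC-II-negative melanophages, against 6.85 and 7.36 in MHC-II-positive and MHC-II-negative macrophages. Melanophages minus macrophages was -0.51 ± 0.22 in the MHC-II-negative class (limma unadjusted p = 0.0409, adjusted p = 0.85). Within macrophages, MHC-II-positive minus MHC-II-negative was also -0.51 (adjusted p = 0.611), so MHC-II-negative macrophages were the high group in both. A second, dimmer probe set gave -0.27 and -0.21 for the same differences. Ap3b1 and Ap3d1, the large chains, had group means of 5.66 to 5.83 and 4.18 to 4.58.

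The motor complex was measured unevenly. Rab27a had group means of 2.93 to 3.02, at background, and its partner Mlph 3.23 to 3.42. Myo5a, the myosin that also carries organelles in other cells, read 7.54, 7.77 and 7.75 in MHC-II-positive melanophages and 7.86, 8.04 and 8.04 in MHC-II-negative melanophages, against 7.49, 7.72 and 7.59 in MHC-II-positive macrophages and 7.58, 7.89 and 7.95 in MHC-II-negative macrophages. The MHC-II classes were apart in melanophages and overlapped in macrophages. Within melanophages, MHC-II-positive minus MHC-II-negative was -0.29 (limma adjusted p = 0.757). Over both cell kinds it was -0.25 ± 0.08 (limma unadjusted p = 0.00985, adjusted p = 0.306). An unadjusted p under 0.05 was found for 3 members in this comparison (Ednrb, Sox10 and Myo5a), all lower in MHC-II-positive cells, against 9.23% of all genes. Lyst, which controls lysosome size, had group means of 3.19 to 3.28, and Vps33a, part of a tether for lysosome fusion, of 5.26 to 5.57.

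Of 27 other genes of the pathway, 17 were above background in all 4 groups and 6 in none. The melanocyte genes Gpr143 and Trpm1 were at background. Mitf, the factor named above, was present in every array, at 5.21, 5.02 and 5.0 in MHC-II-positive melanophages and 5.12, 4.69 and 5.31 in MHC-II-negative melanophages, against 4.96, 4.78 and 4.67 in MHC-II-positive macrophages and 4.21, 5.43 and 4.82 in MHC-II-negative macrophages. The cell kinds overlapped in the MHC-II-negative class and were narrowly apart in the MHC-II-positive class (averaged difference 0.24 ± 0.18, limma adjusted p = 0.822). Mitf transcript was measured where Tyr, Tyrp1 and Dct were at background. Cd63, a membrane protein of melanosomes and lysosomes, had group means of 11.43 to 11.65.

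Between the cell kinds 1 of the 27 was called higher in melanophages and 0 lower, and between the MHC-II classes 1 higher and 0 lower. Over all genes 0.0552% and 0.632% were called higher in these comparisons. Gpnmb, a glycoprotein of melanosomes that macrophages also make, read 7.28, 6.19 and 6.19 in MHC-II-positive melanophages and 8.05, 6.74 and 6.17 in MHC-II-negative melanophages, against 5.24, 4.56 and 4.93 in MHC-II-positive macrophages and 4.84, 4.31 and 4.11 in MHC-II-negative macrophages. All 6 melanophage arrays were above all 6 macrophage arrays (2.11 ± 0.32, adjusted p = 0.0439). That call ended in 11 of the 12 fits that leave out 1 array, all but the one without MHC-II-negative melanophages replicate 3, with differences of 1.84 to 2.31 and adjusted p up to 0.136.

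Slc7a11, a cystine transporter needed for yellow pheomelanin in melanocytes, read 3.48, 2.98 and 3.36 in MHC-II-positive melanophages and 2.65, 2.81 and 2.66 in MHC-II-negative melanophages, against 4.07, 4.72 and 4.21 in MHC-II-positive macrophages and 2.93, 2.70 and 2.51 in MHC-II-negative macrophages. The MHC-II classes were apart in both cell kinds. MHC-II-negative cells, with means of 2.71, were at background, so only a bound can be given there, set against the background level. The bounds use measured means and carry no sampling error. Averaged over cell kind Slc7a11 was at least 1.61-fold higher in MHC-II-positive cells (limma adjusted p = 0.00267 for the measured means of 3.80 and 2.71). Within macrophages it was at least 2.31-fold higher (adjusted p = 0.00383). Within melanophages the bound was only 1.12-fold and the difference did not pass (adjusted p = 0.565), nor did the interaction (unadjusted p = 0.0021, adjusted p = 1.0). The averaged call held in all 25 alternatives.

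**Figure D4:**
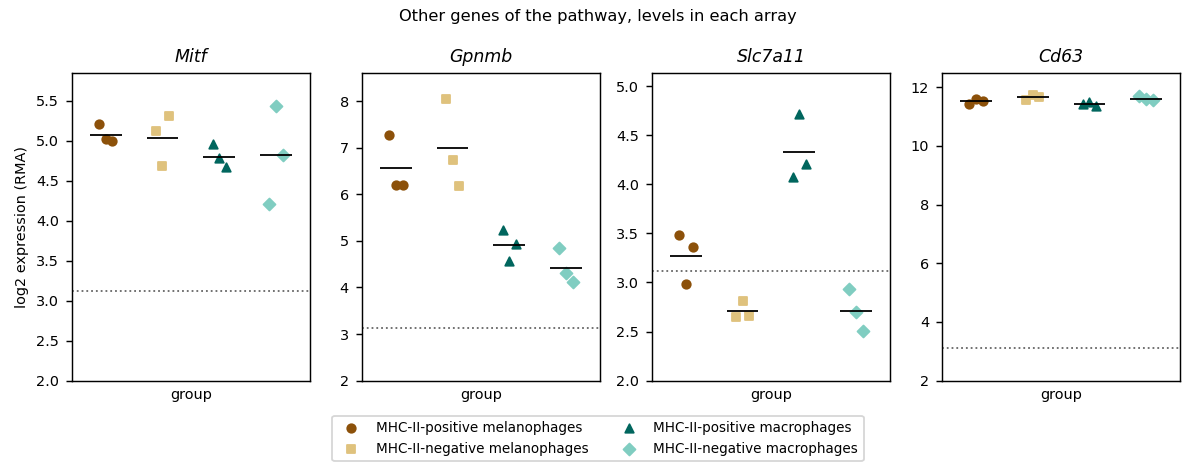
Log2 expression (y axis) of Mitf, Gpnmb, Slc7a11 and Cd63 in each array, by group (x axis), with a line at the group mean and a dotted line at the highest 95th percentile of the receptor genes, 3.12. Gpnmb is higher in the 6 melanophage arrays, Slc7a11 in MHC-II-positive cells, and the 6 arrays of each cell kind overlap for Mitf and Cd63.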

How the data were processed

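The authors deposited log2 expression values of 35556 probe sets. The submitters' processing notes name RMA and the package oligo, without versions, and settings were not given in the sources used. Per the labels' protocols, 3 to 20 ng of total RNA was amplified and labelled with biotin. The arrays' medians lay between 2.97 and 3.08, and no pair of arrays was identical.

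GEO's platform annotation gives 1 symbol for 21789 probe sets, several for 1621 and none for 12146. The brightest probe set, by its mean over the 12 arrays, stood for each gene, which left 19938 genes. 4 members have more than 1 probe set. limma 3.58.1 in R 4.3.3 (lmFit, eBayes) fitted a mean per group over all arrays. Two-sided p-values were adjusted across all genes by Benjamini-Hochberg, with calls at under 0.05. The fit was tested on simulated data. Members, marker lists, tests and the rule for named genes (all 32 members by group means, tests for those with an unadjusted p under 0.05) were chosen with earlier results of these data known. The Rab32, Tyr, Tyrp1, Pmel, Bloc1s2, Bloc1s3 and Bloc1s4 differences, those of Mitf and of Dtnbp1 in the MHC-II-positive class, the Egfl7, Cd24a and Slc7a11 values, the genes of the plots and the promoters shown were chosen after their values were seen. So were the Dcn, Krt10, Krt14 and Oca2 array values and the counts of mast cell and sort genes by direction. Of the 28 other pathway names listed, Pldn is an older name of Bloc1s6, which leaves 27. Alternatives changed the filter on dim genes, normalization, weights, moderation, probe set choice and arrays used, and 1 alternative added after seeing the data took runs of title codes as a block. The number of arrays limits the precision.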

Additional observations from a re-analysis of the deposited data

Results flagged for a closer look

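Dtnbp1, a BLOC-1 subunit, moved in opposite directions in the MHC-II classes. In the MHC-II-negative class all 3 melanophage arrays (5.64 to 6.02) lay above all 3 macrophage arrays (5.24 to 5.63), and in the MHC-II-positive class all 3 (5.65 to 5.83) lay below them (5.87 to 6.47). The difference between the classes was -0.778 ± 0.24 on the log2 scale, with an unadjusted p of 0.00763 and an adjusted p of 1.0 in limma. Leaving out the 2 macrophage arrays least like their groups gave -0.79 ± 0.23. Dtnbp1 was not alone in this. With all arrays, Bloc1s1 had a larger difference of the same sign between the classes (-1.07), and Ap3m1 one of the other sign (0.72). In this interaction 4 of the 32 members (Dtnbp1, Bloc1s1, Ap3m1 and Ednrb) had an unadjusted p under 0.05 in limma, against 4.11% of all genes. None was called.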

How the results depend on the processing

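The count of members called stayed 0 between the cell kinds, averaged and within both MHC-II classes, and in the interaction, in each alternative run. Averaged over cell kind, the count for the MHC-II classes was 0 to 1 when 1 array was left out, and Ednrb kept its sign in all 25 alternatives (-1.47 to -1.09, adjusted p 0.00107 to 0.0551). Within melanophages the count was 0 to 1 when 1 array was left out and 0 with centring on array medians, robust moderation, the probe set with the highest variance or all probe sets of the table. Ednrb there lay between -1.74 and -1.56 in 26 alternatives (adjusted p 0.00415 to 0.192). Within macrophages the count was 1, Ednrb, without both arrays that stood apart, and 0 otherwise. In these cases the cause was not tested. The pigment genes above background numbered 2, with 4 at the 90th and 1 at the 99th percentile of the receptor genes, which follows from the threshold, and the organelle genes 16, with 12 to 19. The difference of Pmel between the cell kinds, 0.03, was -0.060 to 0.13 when 1 array was left out, with -0.01 without replicate 3 of the MHC-II-positive melanophages and -0.060 without replicate 3 of the MHC-II-negative macrophages. No other recomputed difference changed sign. Gpnmb missed the threshold in 15 of 25 alternatives, and Slc7a11 within macrophages in 1 of 26, the fit of its groups alone (adjusted p = 0.079). The labels give no replicate numbers, but the title codes fall into 3 runs of 4 arrays, 1 from each group, whose meaning is not stated. As a replicate block, chosen after seeing the data, the runs changed no call of a member, Gpnmb or Slc7a11, and Ednrb had an adjusted p of 0.0105 over both cell kinds, 0.024 within melanophages and 0.301 within macrophages (-0.78 ± 0.21). Of 18 pairs of arrays of a run 5 had deviations from their group means that correlated over 0.1 (-0.25 to 0.27), and 5 of 12 arrays correlated best with their own run, so the runs were not taken as pairs. Array values carry no detection call, so weak transcripts near 3.1 cannot be told from background.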
